A study of Mus musculus with 6 samples.

Results

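The genes described here are 10 members of the circadian clock, chosen by symbol from the 32285 genes listed in each library. They are Arntl, Npas2, Per1, Per2, Per3, Nr1d1, Nr1d2, Dbp, Tef and Ciart, and all 10 were found. They were picked because Dbp and Arntl differed between genotypes in mesenchymal cells, so the values of these genes in that comparison are a description and were not tested. Single-cell RNA was measured with droplet-based 3′ chemistry in the rotator cuff enthesis, the insertion of tendon into bone, of wild-type mice, C57BL/6 in the study's methods, and of mice lacking Nlrp3, the sensor of an inflammasome. All animals had the tendon cut and sutured back, and tissue was taken 7 days post injury (dpi), from 3 libraries of each genotype. The Nlrp3-/- animals lack the gene in every cell type. Tissue was pooled before cell isolation, the labels give neither the number of animals behind a library nor their age, the mice were adult by the study's methods, and the hour of collection is not given in the sources used here. Spread between libraries may therefore be partly technical, and p-values measure only that spread. If the hour of collection differed between the genotypes, it could not be told apart from genotype. The same holds for the supplier of the mice, which differed between the genotypes by the study's methods.

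The clock is a feedback loop of transcription. ARNTL, also called BMAL1, pairs with CLOCK or its relative NPAS2 and activates genes with E-box promoters, among them the Per, Nr1d, Dbp, Tef and Ciart genes. PER proteins and CIART hold the activators back, NR1D1 and NR1D2 (REV-ERBα and β) repress Arntl and Npas2 through ROR elements, and DBP and TEF act on D-boxes in output genes. In most tissues Arntl and Npas2 therefore peak at about the opposite phase of the day to Dbp, Per3 and Nr1d1.

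The promoters of 4 members are printed to show these elements: Arntl and Dbp as the genes that led to the choice, Per3 for its D-boxes and Ciart for its E-boxes. The sequences are the RefSeq windows from 250 bases before to 50 bases after a start site, on build GRCm38.p6, read 5′ to 3′ on the strand of the gene, and capitals mark matches to the motifs below.
Arntl, chr7:113207261-113207560, plus strand: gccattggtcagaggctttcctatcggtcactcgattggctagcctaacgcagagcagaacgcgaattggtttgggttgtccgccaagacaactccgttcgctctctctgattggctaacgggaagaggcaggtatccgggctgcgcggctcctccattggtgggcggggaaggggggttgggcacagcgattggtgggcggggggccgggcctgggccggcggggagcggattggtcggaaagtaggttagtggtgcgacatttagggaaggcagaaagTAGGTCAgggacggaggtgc
Dbp, chr7:45704997-45705296, plus strand: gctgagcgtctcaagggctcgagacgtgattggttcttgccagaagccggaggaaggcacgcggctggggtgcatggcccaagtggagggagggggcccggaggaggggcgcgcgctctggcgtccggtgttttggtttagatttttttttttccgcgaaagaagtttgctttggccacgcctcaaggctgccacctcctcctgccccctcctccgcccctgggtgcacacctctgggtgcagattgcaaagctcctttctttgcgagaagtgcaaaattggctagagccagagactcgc
Per3, chr4:151044616-151044915, minus strand: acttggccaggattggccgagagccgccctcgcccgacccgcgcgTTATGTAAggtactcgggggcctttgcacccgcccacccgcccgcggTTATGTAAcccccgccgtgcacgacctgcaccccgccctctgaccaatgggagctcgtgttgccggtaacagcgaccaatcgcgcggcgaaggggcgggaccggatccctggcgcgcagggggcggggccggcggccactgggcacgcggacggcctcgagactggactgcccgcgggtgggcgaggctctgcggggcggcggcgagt
Ciart, chr3:95882179-95882478, minus strand: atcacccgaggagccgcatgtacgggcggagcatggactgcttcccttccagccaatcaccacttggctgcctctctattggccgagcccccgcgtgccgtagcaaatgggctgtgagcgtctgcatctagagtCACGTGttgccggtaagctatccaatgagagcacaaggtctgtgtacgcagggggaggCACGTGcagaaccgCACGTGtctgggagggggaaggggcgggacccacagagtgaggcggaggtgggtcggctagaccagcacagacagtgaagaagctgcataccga
Motifs were searched on both strands in windows of 300 bases: the E-box CACGTG, the D-box TTATGTAA and the ROR element core TAGGTCA or TGGGTCA. Of 32851 windows, 7.15% held the E-box, 0.938% the D-box and 6.45% the ROR core. Of the members 9 had a window, and Per2 had no entry. The E-box was found for 3 members, Per1, Tef and Ciart, with 3 copies in the Ciart window. The D-box was found for Per3, in 2 copies, and the ROR core for Arntl, in 1 copy. No match lay in the windows of Npas2, Nr1d1, Nr1d2 and Dbp, which says only that these letters are not in these windows.

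Sequencing depth was 97042713 to 134901999 UMIs (unique molecular identifiers, counted molecules) per library, and 80358 cells were kept, with a median of 1817 to 6673.5 UMIs per cell. Cells were clustered without the clock genes and named from marker genes, so that mesenchymal-like means a cluster with markers of mesenchymal cells. Levels are CPM, UMIs of a gene scaled to a total of 1000000 UMIs per cell type and library. The libraries labelled as Nlrp3 knockout held 0 Nlrp3 UMIs in cells, where 3 counts would be at most 0.0407 CPM, against 95.4 to 174 CPM in wild type. In 2 of them another label names a different gene of the family. Xist was 782 to 947 CPM in the knockout libraries and at most 0.104 CPM in wild type, and the Y-linked Ddx3y was 39.3 to 57.2 CPM in wild type and 0 in the knockouts, so genotype and sex cannot be told apart in any comparison below. Nlrp3-/- library 1 stood apart: 51.0% of its cells fell in clusters made up of more than 75% of cells from 1 library, against 0.366% to 0.594% of the other libraries, and these cells were set aside. Cell barcodes shared between 2 libraries were 0.256% to 0.647% of the smaller one. Per1 lies 9.53 Mb and Nr1d1 39.2 Mb from Nlrp3 on chromosome 11, and the other members lie on other chromosomes.

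The clock genes differed in where they were found, and several had their highest mean over the 6 libraries in structural cells. In 12 cell types every library held 20 cells or more. Among these types mesenchymal-like cells had the highest mean level of Npas2, Nr1d1, Nr1d2 and Dbp over both genotypes. The same held for each of these genes in wild type alone, but in the knockouts alone only for Npas2. Npas2, the relative of Clock, was the most restricted member. It reached 8.75 CPM over the 6 libraries (4.35 to 14.0) in mesenchymal-like cells, higher than the next type in 6 of 6 libraries. Plasmacytoid dendritic-like cells followed with 3.26 CPM (0 to 9.13), on 4 UMIs in all. Pericyte-like and smooth muscle-like cells had 2.50 CPM on 0 to 7 UMIs per library, and macrophage-like cells had 0.140 CPM. For Nr1d1 the mesenchymal-like mean of 19.2 CPM was above the endothelial-like mean of 18.7 in 3 of 6 libraries, so their order was not resolved. In that order the means were 24.5 and 22.3 CPM in wild type and 13.9 and 15.04 CPM in the knockouts. For Nr1d2 the order turned with the genotype. Mesenchymal-like cells were at 36.0 CPM over the 6 libraries, 48.6 CPM in wild type and 23.5 CPM in the knockouts. T-like and NK-like cells were at 35.3, 30.7 and 39.8 CPM, lower in each wild-type library and higher in each knockout library. For Dbp, mesenchymal-like and endothelial-like means were 49.1 and 16.2 CPM in wild type and 7.58 and 8.77 CPM in the knockouts. Knockout means of Dbp were 8.61 CPM in B-like cells and 9.94 CPM in plasmacytoid dendritic-like cells, the latter type with 12 UMIs over the 6 libraries. The knockout ranges of these types overlapped that of mesenchymal-like cells.

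**Figure D1:**
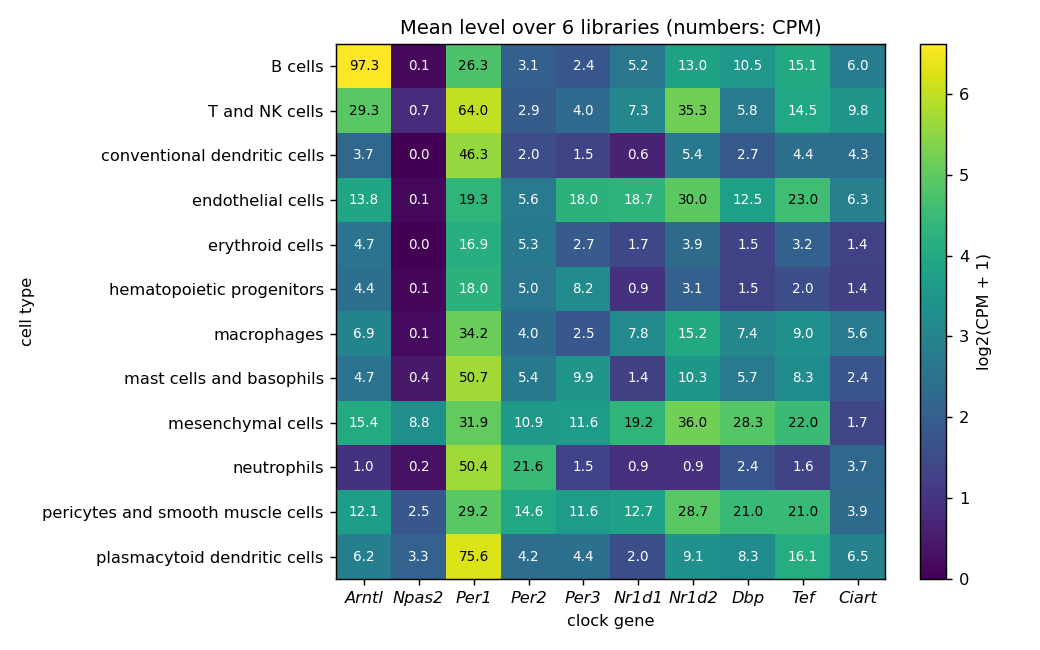
Mean level of each clock gene (columns) in each cell type (rows) over the 6 libraries, with the value in CPM printed and the colour giving log2(CPM + 1). Arntl stands out in B cells at 97.3 CPM, Per2 in neutrophils at 21.6 CPM, and Npas2 in mesenchymal cells at 8.75 CPM.

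Arntl, the activator, was highest in B-like cells, with a mean of 97.3 CPM and a range of 48.3 to 134.7 CPM over the libraries. T-like and NK-like cells came second at 29.3 CPM, lower than B-like cells in 6 of 6 libraries. Mesenchymal-like, endothelial-like and pericyte-like cells followed at 15.4, 13.8 and 12.1 CPM, and neighbours in this order were split 3 to 3 or 4 to 2 over the libraries. The 3 to 3 split, between mesenchymal-like and endothelial-like cells, followed the genotype. Their means were 5.63 and 8.22 CPM in wild type and 25.1 and 19.5 CPM in the knockouts. Neutrophil-like cells had 0.963 CPM, and none of their 6 libraries reached the Arntl level of its own ambient profile.

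Per2, a repressor, had another order. Neutrophil-like cells led with 21.6 CPM (15.4 to 28.0), above the next type, pericyte-like cells at 14.6 CPM, in 5 of 6 libraries. Mesenchymal-like cells came next at 10.9 CPM. In wild type alone neutrophil-like and pericyte-like means were 18.0 and 21.4 CPM, and in the knockouts 25.2 and 7.81 CPM. Per1, the repressor that also responds to glucocorticoids and acute stimuli, was found in every type, from 16.9 CPM in erythroid-like to 75.6 CPM in plasmacytoid dendritic-like cells. Its ambient profile, the pooled RNA of barcodes with at most 100 UMIs, was high too, at 34.7 to 71.4 CPM, and was above the level of mesenchymal-like, endothelial-like, macrophage-like and B-like cells in every library. Over both genotypes Per3 was highest in endothelial-like cells at 18.0 CPM, with pericyte-like and mesenchymal-like cells both at 11.6 CPM. In the same order the means were 15.4, 16.8 and 17.4 CPM in wild type and 20.6, 6.49 and 5.77 CPM in the knockouts. Tef, the D-box activator, was 23.0, 22.0 and 21.0 CPM in endothelial-like, mesenchymal-like and pericyte-like cells, and these types changed places between libraries. In that order its means were 23.3, 28.0 and 27.4 CPM in wild type and 22.6, 15.9 and 14.6 CPM in the knockouts. Ciart was the scarcest of the repressors in mesenchymal-like cells, at 1.67 CPM, below its ambient level in all 6 libraries, and was highest in T-like and NK-like cells at 9.78 CPM.

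The 3 most numerous types were compared over the same libraries with edgeR, with the library as a block. Each fitted difference is an average over both genotypes. It uses the scaling between types of the fit (TMM), so it is not a ratio of the CPM printed. The filter on low counts asked for 0.338, 0.508 and 0.905 CPM in mesenchymal-like, macrophage-like and neutrophil-like cells. Members that reached it in only 1 of the types compared did not have to differ, but the filter can favour a difference. Such members are left out of the counts. Npas2 is one of them: it was at 4.35 to 14.0 CPM in mesenchymal-like cells and at 0 to 0.242 CPM in macrophage-like cells, on 20 UMIs in all. Between mesenchymal-like and macrophage-like cells the other 9 members passed an adjusted p of 0.05, as did 80.6% of the 15816 genes tested, so a call here says little about the members. In mesenchymal-like cells 7 members were higher, as were 42.9% of genes, and 2 lower, as were 37.7%. The median log2 difference of the 9 members was 1.11, and 0.07 over all genes. Per3 differed by 1.93 ± 0.31 (SE, adjusted p = 0.000379), higher in 6 of 6 libraries. Ciart was lower in mesenchymal-like cells by -1.87 ± 0.19 (adjusted p = 1.77e-05, lower in 6 of 6). The call for Arntl, 0.79 ± 0.27 (adjusted p = 0.0245), was lost without any of the 3 knockout libraries, with adjusted p of 0.0647 to 0.0862, and that for Dbp, 1.32 ± 0.41 (adjusted p = 0.0156), was lost without wild-type library 1 (0.0603) or 2 (0.0552). By genotype, mesenchymal-like and macrophage-like means of Arntl were 5.63 and 5.02 CPM in wild type and 25.1 and 8.78 CPM in the knockouts. Those of Dbp were 49.1 and 8.19 CPM in wild type and 7.58 and 6.66 CPM in the knockouts. Per1 was lower by -0.24 ± 0.08 (adjusted p = 0.0172), with the libraries split 3 to 3 in CPM, and lost its call without wild-type library 2 (0.0509) or knockout library 3 (0.0523) and in the fit without the library as a block (0.495).

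Against neutrophil-like cells Arntl, Npas2 and Nr1d1 reached the filter in mesenchymal-like cells only, and the other 7 members passed, 4 higher and 3 lower, beside 85.7% of 15091 genes (48.3% higher and 37.5% lower). Per2 was lower in mesenchymal-like than in neutrophil-like cells, by -2.004 ± 0.26 (adjusted p = 4.04e-05, lower in 5 of 6 libraries), and Per1 by -1.66 ± 0.17 (adjusted p = 6.30e-06). In CPM, mesenchymal-like and neutrophil-like means were 10.9 and 21.6 for Per2 and 31.9 and 50.4 for Per1. The other member lower in mesenchymal-like cells was Ciart, at -2.07 ± 0.27. Nr1d2 showed the opposite, at 4.22 ± 0.23 (adjusted p = 3.68e-08). Between macrophage-like and neutrophil-like cells Arntl and Nr1d1 reached it in macrophage-like cells only, and 5 of the other 7 members passed, beside 79.4% of 13667 genes, 3 higher in macrophage-like cells and Per1 and Per2 lower, against 40.6% and 38.8% of genes. Per2 differed most, by -3.29 ± 0.17 (adjusted p = 3.81e-08), at 3.55 to 5.12 CPM in 5 macrophage-like libraries and 2.96 CPM in wild-type library 1, against 15.4 to 28.0 CPM in neutrophil-like cells. Per3 did not pass, at -0.21 ± 0.22, though its CPM was higher in macrophage-like cells in 6 of 6 libraries. The call for Dbp, 0.87 ± 0.31 (adjusted p = 0.0240), was lost without wild-type library 3 (0.0562) or knockout library 3 (0.0612) and in the fit without the block (0.0976).

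In mesenchymal-like cells, 1099 to 3038 per library, the activators Arntl and Npas2 were higher in the Nlrp3-/- libraries, and of the other 8 members 6 were lower without overlap while Per1 and Ciart overlapped. This is the contrast by which the genes were chosen, so the values are given without a test. Dbp, an output activator, was at 45.6, 30.4 and 71.2 CPM in wild-type libraries 1 to 3 and at 6.47, 7.73 and 8.55 CPM in Nlrp3-/- libraries 1 to 3. Every wild-type library was above every knockout library, and the means, 49.1 ± 20.6 and 7.58 ± 1.05 CPM (SD, n = 3 each), differed 6.47-fold. Arntl was at 6.14, 7.11 and 3.64 CPM in wild type and at 21.7, 28.6 and 25.0 CPM in the knockout libraries. The groups were again apart, in the other direction, with means of 5.63 ± 1.79 and 25.1 ± 3.44 CPM and a 4.46-fold difference. These values rest on 98 to 1918 UMIs per gene and library.

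Npas2 moved with Arntl. It was at 4.35, 5.78 and 4.75 CPM in wild type and at 11.1, 14.0 and 12.5 CPM in the knockout libraries, a 2.53-fold difference of the means. Among the repressors, Per3 was at 18.0, 11.7 and 22.4 CPM in wild type and 6.53, 5.15 and 5.64 CPM in the knockouts, 3.01-fold lower. Per2 was at 12.2, 12.3 and 18.1 CPM against 7.25, 6.74 and 8.91 CPM, and was above the ambient level of its library in 2 of 6. Per1 was at 34.1, 25.0 and 52.2 CPM against 37.7, 18.0 and 24.6 CPM, so the groups overlapped for this gene. Nr1d2, a repressor of Arntl, was at 38.7, 33.4 and 73.7 CPM in wild type against 20.4, 26.2 and 23.9 CPM. Nr1d1 was at 27.8, 23.9 and 21.7 CPM against 7.49, 21.4 and 12.7 CPM, so knockout library 2 came close to wild-type library 3. Tef was at 28.0, 23.7 and 32.5 CPM against 19.8, 10.1 and 17.9 CPM. Ciart, with 22 to 71 UMIs per library, overlapped between the groups.

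**Figure D2:**
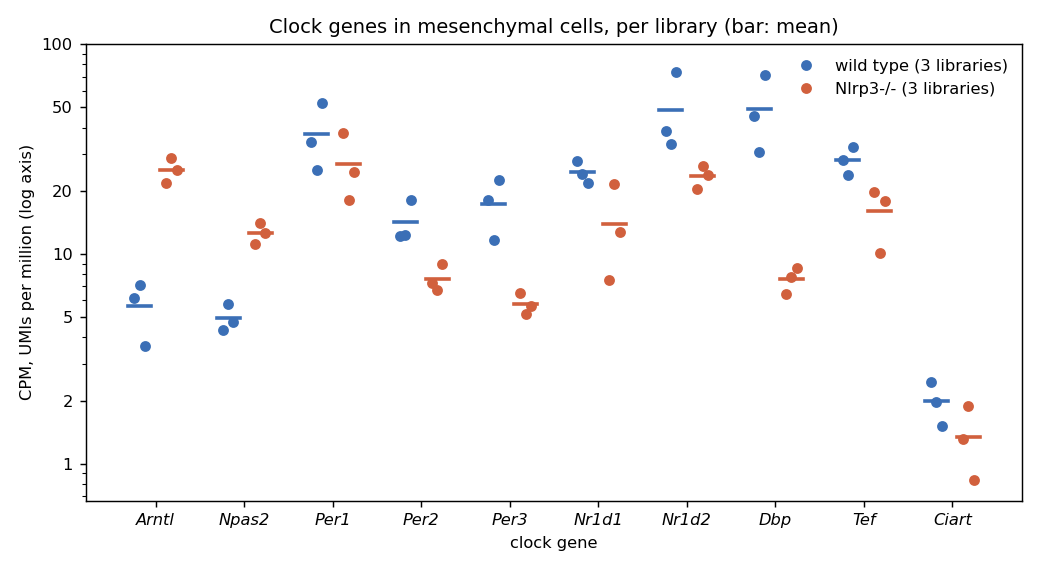
Level of the 10 clock genes in mesenchymal cells, in CPM on a log axis, with 1 point per library (blue, wild type; orange, Nlrp3-/-) and a bar at the mean of 3 libraries. Arntl and Npas2 sit higher in all 3 knockout libraries, Dbp, Nr1d1, Nr1d2, Per2, Per3 and Tef lower, and Per1 and Ciart overlap.

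Thus 2 members were higher and 6 lower without overlap, and the share of all 14708 genes tested was 14.2% and 6.69%. Since the contrast chose the members, nothing is read from these shares. The counts were also 2 and 6 when CPM were rescaled by the median ratio between libraries (8.78% and 10.8% of all genes), and 2 and 7 without knockout library 1, when Per1 joined the lower genes (19.5% and 12.1% of all genes), or without wild-type library 3, when Ciart did (31.2% and 22%). The fitted log2 fold changes, knockout over wild type, ran from -2.74 ± 0.33 (SE) for Dbp to 2.11 ± 0.27 for Arntl. Their median was -0.87, against 0.04 over all genes, and 0.122% of genes passed an adjusted p of 0.05 in this contrast. Leaving out each library in turn gave -2.996 to -2.39 for Dbp and 1.85 to 2.32 for Arntl. The log2 ratio of Dbp to Arntl UMIs in a library was 2.89, 2.098 and 4.29 in wild type and -1.75, -1.89 and -1.55 in the knockouts.

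Markers of other cell types were measured in the same cells. The summed level of 10 mesenchymal markers was 47932 to 100330 CPM in wild type and 80016 to 87457 CPM in the knockouts. The summed levels of 10 neutrophil markers (1264 to 3455 against 1090 to 1443 CPM) and 10 macrophage markers (205 to 255 against 189 to 293 CPM) overlapped between the groups. The sums of 8 markers of dividing cells (712 to 1007 against 482 to 534 CPM) and of 10 pericyte markers (1003 to 1117 against 414 to 994 CPM) were lower in the knockouts without overlap. Erythroid markers reached 309 CPM in knockout library 2 and 5.01 to 15.5 CPM in the others. The part of these shifts in the clock values was not tested.

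The difference in Dbp and Arntl was present in each mesenchymal subset that could be compared. Clustering these cells again gave 7 subsets that held 20 cells or more in every library: dividing cells, inflammatory and synovial lining fibroblasts, tenocytes and universal fibroblast progenitors, each named from markers and therefore "-like", a pair of clusters joined by their markers of matrix-building fibroblasts but led by other genes, and an unnamed cluster led by the neutrophil genes Retnlg, S100a9 and S100a8. Of the pair, the cluster of 959 cells was led by the contractile genes Actg2, Acta2, Cnn1 and Tagln and that of 628 cells by Eln and Ccn3, so they are called here by Actg2 and Eln. In all 7, Dbp and Nr1d2 were lower and Arntl and Npas2 higher in the knockouts without overlap. Per3 was lower without overlap in 6, Per2 and Tef in 5, Nr1d1 in 3, and Per1 and Ciart in 2. Of the 14708 genes tested in mesenchymal-like cells, 13.3%, 9.09%, 12%, 14.4%, 8.83%, 11.5% and 9.7% were higher without overlap and 5.48%, 5.22%, 5.6%, 6.19%, 6.18%, 4.29% and 5.23% lower, in the order of dividing, inflammatory-like, Actg2 and Eln, synovial lining-like, tenocyte-like and progenitor-like cells and the unnamed cluster. Nothing is read from these shares either, since the members were chosen on these cells. The subsets share their libraries and are not replicates.

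**Figure D3:**
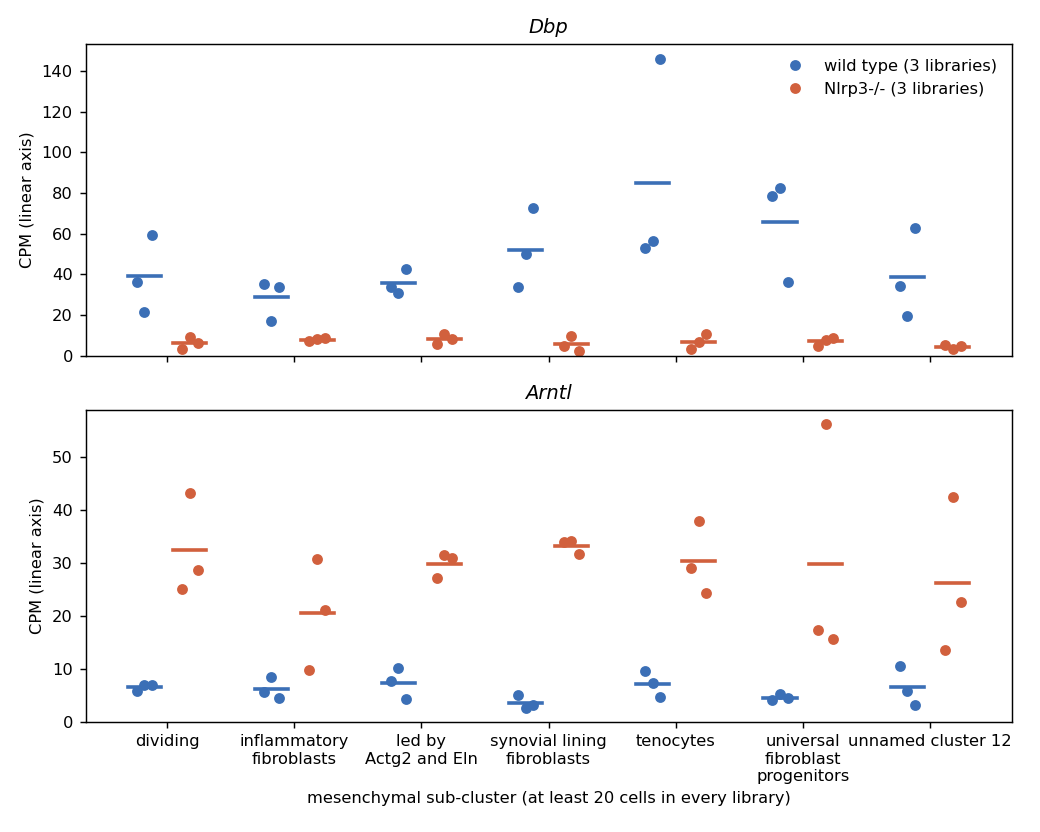
Dbp (top) and Arntl (bottom) in the 7 mesenchymal subsets with at least 20 cells in every library, in CPM on a linear axis from 0, with 1 point per library (blue, wild type; orange, Nlrp3-/-) and a bar at the mean. In each subset the 3 wild-type points are above the 3 knockout points for Dbp and below them for Arntl.

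In tenocyte-like cells, with the tendon genes Tnmd and Kera among their leading genes, Dbp was at 53.0, 56.4 and 146 CPM in wild type and 3.22, 6.87 and 10.6 CPM in the knockouts, a log2 ratio of means of -3.63 across the genotypes, and wild-type library 3 was far above the other two. These cells came from 3 clusters, and knockout library 2 gave 50.6% of the 1324 cells of the largest and 100% of the 27 cells of the smallest. An unnamed cluster of 862 cells, also led by Tnmd and Kera and with 63.0% of its cells from wild-type library 3, was not compared because wild-type library 1 had 10 of them. There Dbp was at 80.7, 81.3 and 96.7 CPM in wild type and at 0, 7.02 and 3.84 CPM in the knockouts, a log2 ratio of means of -4.57. Synovial lining-like fibroblasts, with Prg4 among their leading genes, had Arntl at 4.97, 2.61 and 3.12 CPM against 33.9, 34.1 and 31.7 CPM, a log2 ratio of 3.22. Inflammatory-like fibroblasts, with Saa3 and Cxcl5, had log2 ratios of -1.85 for Dbp and 1.72 for Arntl, and knockout library 1 was closest to wild type there, at 9.74 CPM of Arntl against 8.43 CPM in wild-type library 2. The inflammatory-like cells came from 6 clusters filled by different libraries: wild-type library 2 gave 61.5% and 76.7% of 2 of them and 42.4% of another, led by Eln, wild-type library 3 gave 89.4% of one, knockout library 2 gave 90.6% of one and knockout library 3 gave 58.5% of one, and the part of this in the ratio was not tested. Progenitor-like cells came from 3 clusters, and knockout library 2 gave 98.8% of the 83 cells of 1 of them. In dividing cells, named from Ube2c, Top2a and other mitotic genes, Dbp was at 36.4, 21.4 and 59.6 CPM against 3.14, 9.34 and 6.28 CPM. Chondrocyte-like cells, not compared because knockout library 3 had 11 of them, had Dbp at 106, 236 and 84.4 CPM in wild type, from 80, 21 and 41 cells, against 25.7, 7.80 and 56.5 CPM in the knockouts. Arntl overlapped between the groups there, at means of 4.05 ± 3.85 CPM in wild type and 7.73 ± 7.34 CPM (SD) in the knockouts.

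Pericyte-like and smooth muscle-like cells, which wrap vessels, showed the same order of genotypes for Dbp and Arntl in the same 6 libraries. The choice of genes used another named type, but mesenchymal markers were high in these cells too. Dbp fell in the knockouts. It was at 34.9, 26.7 and 42.8 CPM in wild type and at 6.13, 8.09 and 7.67 CPM in the knockouts, on 10 to 43 UMIs per library, and the fitted log2 fold change was -2.34 ± 0.27 (adjusted p = 0.0179 in edgeR, lower in 3 of 3 libraries). It was 1 of 8 members tested that passed, where 0.0847% of 9449 genes did (0.0529% lower). At an unadjusted p under 0.05 there were 7 members, all but Per1, beside 11.7% of genes. The call was lost without wild-type library 1 (adjusted p = 0.0840), knockout library 2 (0.0518) or knockout library 3 (0.114), with log2 fold changes of -2.50 to -2.20 when any library was left out. With the replicate number as a block the adjusted p was 0.0828, and DESeq2 gave no adjusted p for any of the 8 members, with a log2 fold change of -2.37 ± 0.42 for Dbp. The filter on low counts asked for 7.49 CPM in 3 libraries of these cells, and Arntl, Dbp, Nr1d1, Per2 and Per3 met it only through the genotype where they were higher, with 0 libraries of the other genotype at that level for Arntl and Nr1d1, 1 for Per2 and Per3 and 2 for Dbp. The counts of members in these cells, and the p-values of those members, are therefore a description.

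Arntl was at 4.05, 1.37 and 5.35 CPM in wild-type and 18.8, 28.3 and 14.6 CPM in knockout pericyte-like cells, on 2 to 43 UMIs. Its log2 fold change of 2.47 ± 0.46 did not pass (adjusted p = 0.126). Without overlap, 1 member was higher and 5 were lower, namely Dbp, Nr1d1, Nr1d2, Per2 and Per3, where 12.5% and 4.7% of genes were. With CPM rescaled by the median ratio the counts were 1 and 6, Tef being added, beside 8.27% and 8.25% of genes. Nr1d1 was at 23.5, 19.2 and 14.97 CPM against 6.13, 5.67 and 6.98 CPM, a log2 fold change of -1.71 ± 0.30 (adjusted p = 0.109), and was below the ambient level of its library in 6 of 6. Per3 was at 17.0, 15.1 and 18.2 CPM against 6.13, 5.67 and 7.67 CPM. Mesenchymal markers summed to 14215 to 37937 CPM in these cells, against 9471 to 18830 CPM for their own 10 markers. Knockout library 1 held 766 of these cells at a median of 1449.5 UMIs, with macrophage markers at 2659 CPM against 165 to 396 CPM in the other libraries, and without it 1 member was higher and 6 lower without overlap, beside 23.6% and 8.54% of genes. At Leiden resolution 2 a cluster of 724 cells led by Rgs5 and Tagln, 94.9% of them from knockout library 1, was set aside. Its best marker score was mesenchymal, at 4.75, with 4.64 for pericytes and smooth muscle cells. The part of mesenchymal RNA or mesenchymal cells in these values was not tested.

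In endothelial-like cells, the lining of vessels, Arntl was at 7.17, 9.03 and 8.46 CPM in wild type and at 15.2, 19.8 and 23.4 CPM in the knockouts, a log2 fold change of 1.09 ± 0.21 (adjusted p = 0.0571). Dbp was at 13.1, 15.05 and 20.4 CPM against 8.07, 8.94 and 9.30 CPM, a log2 fold change of -0.995 ± 0.20 (adjusted p = 0.0635). No member passed, 0 of 9 by edgeR, with 3 at an unadjusted p under 0.05 and Arntl and Dbp, 2 in all, passing with DESeq2 (adjusted p = 0.0113 and 0.0216), where 4% of the 9972 genes given an adjusted p passed. Of all 11539 genes 0.459% passed by edgeR and 20.9% had an unadjusted p under 0.05. Without overlap 2 members were higher, Arntl and Per3, and 1 was lower, Dbp, where 17.7% and 5.83% of genes were. With CPM rescaled by the median ratio 1 was higher, Arntl, and 3 were lower, Dbp, Nr1d1 and Per1, beside 10.9% and 11.4% of genes. Without wild-type library 3, 3 members passed in edgeR: Arntl (adjusted p = 0.0118), Dbp (0.0120) and Nr1d1 (0.00573), where 21% of 11909 genes passed. With the replicate number as a block 1 member passed, Arntl, where 115 genes passed in all. Per3 was at 12.9, 13.4 and 19.7 CPM in wild type and 20.1, 21.7 and 20.02 CPM in the knockouts, a log2 fold change of 0.31 ± 0.18 (adjusted p = 0.335). Nr1d2 was at 25.9 to 34.9 CPM against 27.5 to 36.5 CPM. In these cells the sums of mesenchymal markers (340 to 763 against 883 to 1597 CPM) and macrophage markers (199 to 306 against 312 to 517 CPM) were higher in the knockouts without overlap, and their part in the clock values was not tested.

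The ambient profile differed between the genotypes in the same direction. Dbp was at 18.4, 19.3 and 28.3 CPM in the ambient RNA of the wild-type libraries and at 8.41, 5.86 and 7.08 CPM in that of the knockouts. Arntl was at 4.64, 6.25 and 10.2 CPM against 9.55, 17.9 and 14.3 CPM, with overlap. Nr1d1 was at 23.9, 24.1 and 16.3 CPM against 10.0, 15.9 and 8.37 CPM, lower in the knockouts without overlap. Nr1d2 was lower in that way too, at 19.5, 21.7 and 34.8 CPM against 16.6, 13.1 and 15.6 CPM. Npas2 was higher without overlap, at 0.994, 1.39 and 1.78 CPM against 3.64, 4.32 and 5.80 CPM. Dbp in endothelial-like cells was above the ambient level of its own library in 2 of 6 libraries, and Dbp in mesenchymal-like and in pericyte-like cells in 5 of 6. The part of ambient RNA in the mesenchymal-like, endothelial-like and pericyte-like values was not tested.

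**Figure D4:**
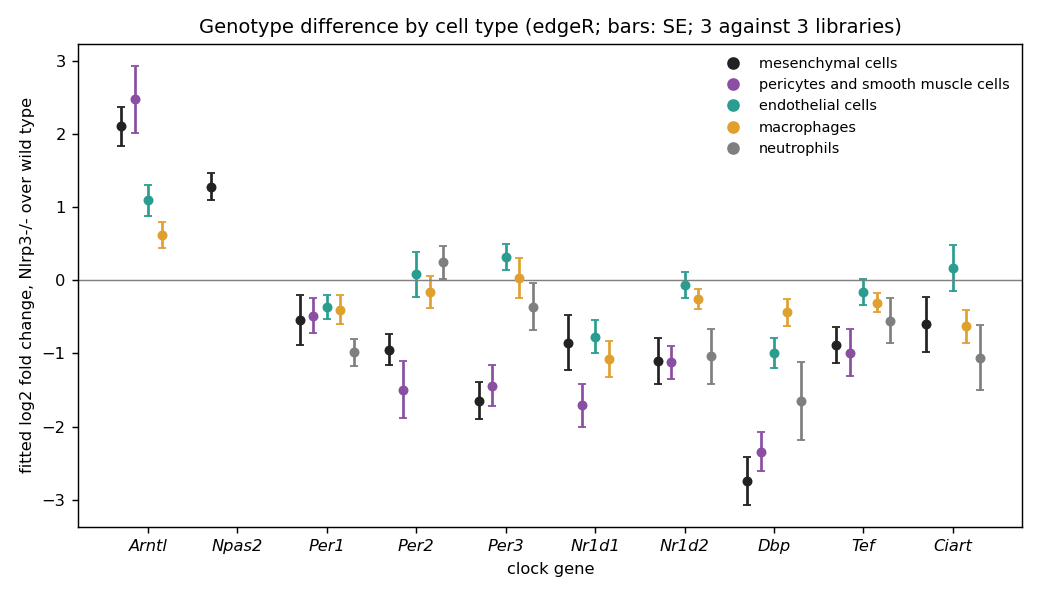
Fitted log2 fold change of each clock gene, Nlrp3-/- over wild type, in 5 cell types, with bars of 1 SE from edgeR over 3 against 3 libraries; members that did not pass the filter on low counts in a type have no point. Dbp is at -2.74 in mesenchymal cells and -2.34 in pericytes and smooth muscle cells, and Arntl at 2.11 and 2.47. In neutrophils Dbp, Ciart and Nr1d2 are at -1.65, -1.06 and -1.04, and in macrophages Nr1d1 is at -1.08. The other points of these last types lie between -1 and 1.

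In macrophage-like cells 9 members were tested and 0 passed by edgeR, where 0.486% of 12953 genes did. At an unadjusted p under 0.05 there were 5, beside 19.8% of genes, and Nr1d1 was the 1 that passed with DESeq2 (adjusted p = 0.00323), as did 5.36% of 11690 genes. Nr1d1 was at 10.9, 12.1 and 7.60 CPM in wild type and 3.84, 6.59 and 6.04 CPM in the knockouts, a log2 fold change of -1.08 ± 0.24 (adjusted p = 0.125), and it passed without wild-type library 3 (0.00849), as did Ciart (0.0199) and 19.9% of 13369 genes. In 6 of 6 libraries Nr1d1 was below the ambient level, which differed between the genotypes in the same direction. Arntl was at 5.04, 5.74 and 4.28 CPM against 7.34, 10.3 and 8.66 CPM, a log2 fold change of 0.62 ± 0.18 (adjusted p = 0.148). Dbp was at 8.18, 6.80 and 9.58 CPM against 6.27, 5.64 and 8.07 CPM, so the groups overlapped. Without overlap 1 member was higher, Arntl, and 1 lower, Nr1d1, where 20.9% and 4.89% of genes were. With CPM rescaled by the median ratio 1 was higher, Arntl, and 3 were lower, Nr1d1, Nr1d2 and Tef, beside 11.2% and 12% of genes. Mesenchymal markers summed to 290 to 598 CPM in wild-type and 609 to 1169 CPM in knockout macrophage-like cells, and Arntl was above the ambient level of its library in 1 of 6. The part of either in the Arntl values, and of ambient RNA in those of Nr1d1, was not tested.

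In neutrophil-like cells, Per1 was at 55.4, 70.4 and 64.5 CPM in wild type and at 39.3, 34.3 and 38.3 CPM in the knockouts, a log2 fold change of -0.99 ± 0.18 (adjusted p = 0.103). It passed with DESeq2 (adjusted p = 0.00379), as did 1.76% of 10767 genes, and without knockout library 1 (0.0430), as did 1.17% of 11084 genes. The ambient profile held Per1 at 51.7, 43.1 and 71.4 CPM in wild type and at 48.2, 34.7 and 45.1 CPM in the knockouts, so Per1 in these cells was above the ambient level of its own library in 2 of 6, both wild type, and the part of ambient RNA in its values was not tested. By edgeR 0 of 7 members passed, 4 had an unadjusted p under 0.05, and 0.278% and 13.4% of 10774 genes did. Without overlap 1 member was higher, Per2, and 3 were lower, Dbp, Nr1d2 and Per1, where 14.6% and 4.36% of genes were. The filter here asked for 0.905 CPM in 3 libraries, and Nr1d2, Dbp and Per3 met it only through wild type, with 0, 1 and 2 knockout libraries at that level, so these counts are a description too. Dbp was at 2.56, 4.80 and 2.66 CPM in wild type and 2.40, 0.850 and 0.865 CPM in the knockouts, a log2 fold change of -1.65 ± 0.54 (adjusted p = 0.298) that ran from -2.24 to -1.26 when each library was left out. Dbp and Nr1d2 were below the ambient level of their library in 6 of 6, and the part of ambient RNA in their values was not tested. With CPM rescaled by the median ratio 0 were higher and 4 lower, Tef being added, beside 8.48% and 9.26% of genes. Per2 was at 21.5, 17.2 and 15.4 CPM in wild type and at 28.0, 24.1 and 23.3 CPM in the knockouts. In CPM the groups did not overlap, but the median gene of these cells was also 0.24 higher on the log2 scale in the knockouts, and the fitted log2 fold change of Per2 relative to it was 0.25 ± 0.23 (adjusted p = 0.647). Arntl had 3 to 21 UMIs per library in these cells and did not pass the filter on low counts.

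That shift of the median gene ran from 0.10 on the log2 scale in mesenchymal-like and B-like cells to 0.24 in neutrophil-like cells, as plain CPM of knockout over wild type. The fitted fold changes are relative to it. B-like cells, with the highest Arntl, had 60.6, 48.3 and 112 CPM in wild type and 134.7, 104 and 124 CPM in the knockouts, and the groups overlapped (log2 fold change 0.60 ± 0.27, adjusted p = 0.656). Dbp in these cells was at 10.0, 12.6 and 14.8 CPM against 6.74, 12.1 and 7.00 CPM. The Dbp to Arntl ratio was below 0 on the log2 scale in all 6 libraries of B-like cells, from -4.32 to -1.94. T-like and NK-like cells had Arntl at 16.3, 25.9 and 24.4 CPM against 32.3, 33.1 and 43.7 CPM (log2 fold change 0.55 ± 0.27, adjusted p = 0.443). In B-like, T-like and NK-like, conventional and plasmacytoid dendritic-like, erythroid-like, mast-like and basophil-like cells and hematopoietic progenitor-like cells 0 members passed by edgeR, and 1, Arntl in B-like cells, had an unadjusted p under 0.05. In the order given, 0.245%, 0.732%, 0.218%, 1.63%, 4.36%, 0.338% and 0.488% of genes passed by edgeR, and 7.5%, 12.4%, 15.4%, 15.4%, 22.1%, 10% and 18.4% had an unadjusted p under 0.05. DESeq2 gave an adjusted p for 7 of 7 members in B-like cells, where 0 passed beside 0.488% of genes, for 1 of 8 in progenitor-like cells, where 0 passed, and for none in the others. Per1 was the member that passed the filter on low counts in all 12 types. Whether the genotype difference itself differs between cell types was not tested.

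**Figure D5:**
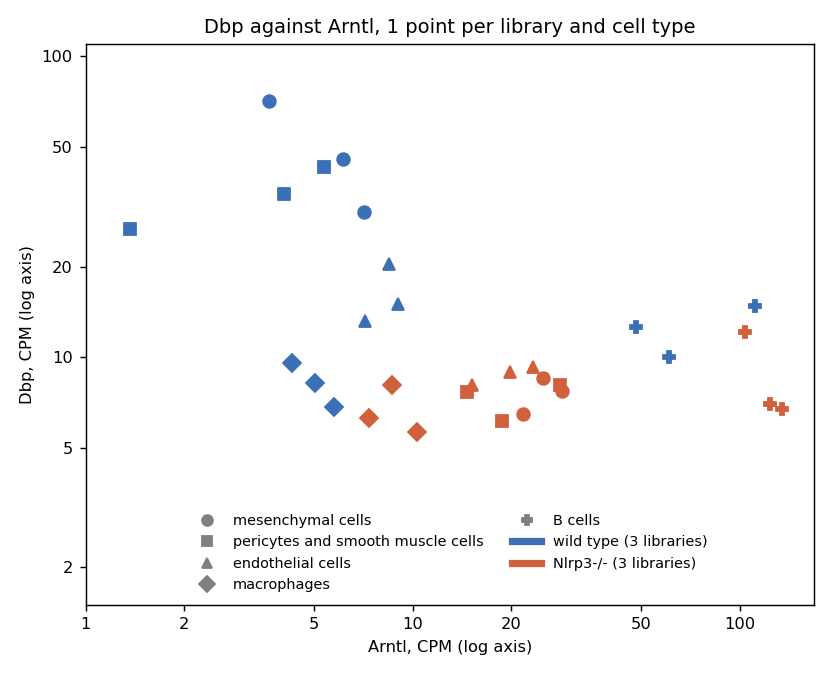
Dbp against Arntl in 5 cell types, in CPM on log axes, with 1 point per library and cell type (shape, cell type; blue, wild type; orange, Nlrp3-/-). Wild-type mesenchymal cells and pericytes lie at high Dbp and low Arntl, the knockout points of these types lie with knockout endothelial cells at Dbp below 10 CPM and Arntl above 10 CPM, and B cells lie apart at the right.

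Other genes of the clock were looked at as lists. Of 15 other core clock genes 14 were tested in mesenchymal-like cells and 0 passed by edgeR or DESeq2, with 2 at an unadjusted p under 0.05, as had 14% of all genes, a median log2 fold change of -0.04 against 0.04 over all genes, and 7 above and 7 below 0. Clock, the partner of ARNTL, was at 26.0, 23.7 and 29.2 CPM in wild type and 38.2, 54.4 and 39.4 CPM in the knockouts. Cry1, a repressor, was at 7.24, 6.44 and 7.99 CPM against 9.10, 13.3 and 11.9 CPM. These 2 genes were higher without overlap, as were 14.2% of all genes. No gene of the list was lower in that way, as were 6.69% of all genes.

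Of 10 clock output genes tested in mesenchymal-like cells 0 passed by edgeR, and 3 had an unadjusted p under 0.05, as had 14% of all genes. The same 3 passed with DESeq2, as did 2.45% of genes. They were Wee1, a brake on mitosis, at 19.1, 15.7 and 16.8 CPM against 11.2, 6.61 and 8.61 CPM, Tspan4, at 249, 243 and 148 CPM against 90.6, 127.5 and 113 CPM, and Por, at 34.9, 40.3 and 33.1 CPM against 25.5, 20.8 and 26.2 CPM. All were lower in the 3 knockout libraries without overlap, as were 6.69% of all genes. The median of that list was -0.18. Among glucocorticoid-responsive genes, a list that also holds Per1, 0 of 10 passed by edgeR or DESeq2, none had an unadjusted p under 0.05, and 9 had a fold change below 0 with a median of -0.35. Among immediate-early and dissociation-response genes 0 of 12 passed by edgeR or DESeq2, 1 had an unadjusted p under 0.05, and 6 lay on each side of 0 with a median of 0.00173. In pericyte-like cells 0 of 10 other core clock genes, 0 of 8 output genes, 0 of 9 glucocorticoid-responsive and 0 of 12 immediate-early genes passed by edgeR, and 1 of each list had an unadjusted p under 0.05, against the 11.7% of genes given above.

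The pattern of Dbp and Arntl within a cell type and genotype was compared with that of other genes as deviations of log2(CPM + 1) from the mean of 3 libraries. It used 48 sums, from 8 cell types of which every library held 100 cells or more, and 6188 genes averaging 20 CPM or more. The sums of a library share its depth and its animals, so the values are a description. The 5 genes most like Dbp were Fkbp15 (Pearson r = 0.738), 2310039H08Rik (0.646), Lpcat2 (0.640), Plekhf2 (0.635) and Sec16a (0.614). Those most like Arntl were Hjurp (0.734), Atad2 (0.710), Lrwd1 (0.708), Smc4 (0.692) and Srsf3 (0.692). Members averaging less than 20 CPM were not in that search. In the same 48 sums Dbp and Arntl were nearly unrelated (r = -0.06), and the highest value between 2 members was 0.638, for Per1 and Nr1d2. Some of these sums held few UMIs. Dbp had 0 to 10 in T-like and NK-like and 1 to 8 in conventional dendritic-like cells, and Arntl had 3 to 21 in neutrophil-like cells. Each sum weighs alike, so counting error limits every r over the 48 sums. Within mesenchymal-like cells alone, on 6 sums, Dbp went with Nr1d2 (r = 0.933), Per3 (0.826) and Per2 (0.798) and against Arntl (-0.77), and Arntl went against Per1 (-0.92), while Dbp had r = 0.313 with Tef and 0.0745 with Nr1d1, Arntl had 0.542 with Nr1d1, and Nr1d1 had -0.86 with Tef.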

How the data were processed

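The authors deposited, for each of 6 libraries, raw counts: whole UMIs per gene and barcode, written by Cell Ranger 4 per the file headers, with no cell calling, normalization or pooling of libraries. The submitters' processing notes name Cell Ranger 2.1.1 and build mm10. Barcodes with at least 500 UMIs, 200 genes and at most 10% mitochondrial UMIs that differed from the ambient profile at a false discovery rate of 0.01 (10000 simulations) were kept. Doublets were scored against simulated ones in the manner of Scrublet, and the top 0.8% per 1000 cells were removed. Cells were clustered on 2000 variable genes, 30 components and 15 neighbours with Leiden 0.10.2 at resolution 1, leaving out the members, other core clock genes, sex-linked genes and Nlrp3. Names required 3 markers at 1.5-fold over the median cluster. Muscle-like cells, under 20 in 1 library, were not tested. The rule that set aside clusters with over 75% of cells from 1 library was chosen after the clusters were seen. It was not applied to the clusters within mesenchymal-like cells. UMIs were summed per library and type and tested with edgeR 4.0.16 (R 4.3.3; quasi-likelihood, TMM, filterByExpr, Benjamini-Hochberg at 0.05), with DESeq2 1.42.0 as an alternative, and the fit was checked on simulated data. Totals were 97042713 to 134901999 UMIs per library, and a few UMIs per gene limit low values to counting error. The members and gene lists were chosen with earlier results of these data known. All 10 members are named, other listed genes where they passed a test or as counts, and the genes named for likeness are the 5 with the highest r. Clock, Cry1, Wee1, Tspan4 and Por, and the markers Xist, Ddx3y and Nlrp3, were named after their values were seen. Positions are from GENCODE vM21 (GRCm38). Alternatives were other size factors, no filter, a replicate block, no library block between cell types, each library left out, stricter cell limits, a double doublet rate, resolution 2 and single-library clusters kept.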

Additional observations from a re-analysis of the deposited data

Results flagged for a closer look

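Among cell types in which the member passed the filter on low counts, for 3 members the knockout libraries were all above the wild-type libraries in CPM in 1 cell type and all below them in another, and these differences between cell types were not tested. For Per3 the fitted log2 fold change was 0.31 in endothelial-like cells and 0.73 in mast-like and basophil-like cells, against -1.65 in mesenchymal-like and -1.44 in pericyte-like cells. Per3 met the filter through 3 knockout libraries and 1 wild-type library in mast-like and basophil-like cells, and it and Per2 through 3 wild-type libraries and 1 knockout library in pericyte-like cells. The gaps for Per3 were 1.96 and 1.76 for endothelial-like cells and 2.38 and 2.17 for mast-like and basophil-like cells, respectively. For Per2 the fold change was 0.25 in neutrophil-like cells and 0.00747 in hematopoietic progenitor-like cells, against -0.95 in mesenchymal-like and -1.50 in pericyte-like cells, with gaps of 1.20 and 1.75 for neutrophil-like and 0.96 and 1.51 for progenitor-like cells. For Tef the gap between progenitor-like (0.13) and mesenchymal-like cells (-0.88) was 1.01. After CPM were rescaled by the median ratio, Per3 in endothelial-like, Per2 in neutrophil-like and progenitor-like and Tef in progenitor-like cells overlapped between the groups, and Per3 in mast-like and basophil-like cells did not. Per2 in progenitor-like cells was below 0 in 7 of its 15 alternative fits. Nr1d2 did not pass that filter in conventional dendritic-like (3.20 to 4.42 CPM in wild type, 5.42 to 7.85 in the knockouts) and plasmacytoid dendritic-like cells (2.60 to 8.90 against 9.13 to 15.2 CPM), where its knockout libraries were all above, and all below in mesenchymal-like and pericyte-like cells. In progenitor-like cells 24.3% and in mast-like and basophil-like cells 14.9% of all genes were higher in the knockouts without overlap, beside 17.7% in endothelial-like and 14.6% in neutrophil-like cells. In conventional and plasmacytoid dendritic-like cells these shares were 18.8% and 13.7%, and Nr1d2 rested on 48 and 18 UMIs in all. No test for an outlying value was run within a group, since each group holds 3 libraries.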

How the results depend on the processing

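The direction of all 10 members in mesenchymal-like cells was the same under each alternative run. Over mesenchymal-like, pericyte-like, endothelial-like, macrophage-like and neutrophil-like cells 10 of 642 fitted values of members changed sign, in 4 of 43 gene and type pairs, and over the other 7 types 30 of 380, in 12 of 26, among them Nr1d2 in mast-like and basophil-like cells (-0.42 to 0.587 when each library was left out) and Per1 in erythroid-like (-0.689 to 0.194) and B-like cells (-0.386 to 0.354). In the first of these groups of types, when each library was left out in turn, the log2 fold change in endothelial-like cells ran from -0.128 to 0.334 for Per2 (below 0 without wild-type library 1), from -0.229 to 0.0255 for Nr1d2 (above 0 without wild-type library 3 or knockout library 2 or 3) and from -0.0172 to 0.574 for Ciart (below 0 without wild-type library 3). In macrophage-like cells it ran from -0.140 to 0.275 for Per3, below 0 without wild-type library 1 or 2 or knockout library 1 or 3, and was -0.0119 with the doubled doublet rate.

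The number of members that passed moved most in pericyte-like cells, where that of all genes moved too. From 1 member beside 8 genes in all it went to 6 with no filter, beside 238 genes. It was 2 with the doubled doublet rate, beside 14 genes, and 3 at Leiden resolution 2, beside 28 genes. Nothing is read from these counts, or from those of the other types below, about the members. In endothelial-like cells it moved from 0 to 3 with no filter, 2 with DESeq2 and 1 with the doubled doublet rate, and in macrophage-like and in neutrophil-like cells from 0 to 1 with no filter and 1 with DESeq2. Leaving out each library in turn gave 0 to 1 in B-like, 0 to 3 in endothelial-like, 0 to 2 in macrophage-like, 0 to 1 in neutrophil-like and 0 to 1 in pericyte-like cells. The number of all genes that passed is not given for B-like cells here, nor for endothelial-like cells with the doubled doublet rate. The number of genes that passed in mesenchymal-like, pericyte-like, endothelial-like, macrophage-like and neutrophil-like cells was 18, 8, 53, 63 and 30, with no filter 31, 238, 1137, 398 and 179, and with DESeq2 360, 58, 399, 626 and 189. In pericyte-like cells DESeq2 gave an adjusted p for 655 of 9449 genes and for 0 of 8 members, so it says nothing of their calls. In pericyte-like cells it was 14 with the doubled doublet rate and 28 at resolution 2, and in endothelial-like cells 22 with single-library clusters kept. Leaving out each library gave 6 to 971, 3 to 12, 13 to 2496, 24 to 2659 and 13 to 130 in the same order of types, with the highest counts without wild-type library 3 except in neutrophil-like cells, where it was without knockout library 1. The cause was not tested.

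Libraries of the same number did not deviate together in mesenchymal-like cells (r = -0.11, -0.50 and -0.11). These deviations are centred within 3 libraries of a genotype, so they cannot tell whether such libraries were collected or handled together. With the replicate number as a block, 1 member passed in endothelial-like cells (Arntl, adjusted p = 0.0434) and 0 in pericyte-like cells, and 5, 3, 115, 30 and 12 genes passed in the same order of types. Low counts limit Npas2 outside mesenchymal-like cells and Arntl in neutrophil-like cells.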
